A study of Rattus norvegicus with 2 samples.

Results

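Genes that carry glucose, phosphate, sulfate, dicarboxylates, protons and bicarbonate, or retrieve filtered protein, in the proximal tubule were compared between 2 arrays of whole kidney RNA. These genes are Slc5a1, Slc5a2, Slc2a2, Slc34a1, Slc26a1, Slc13a1, Slc13a3, Slc9a3, Slc4a4 and Lrp2, 10 of 13435 named genes. They were found as every non-control probe whose transcript accession maps to one of these genes, which gave 13 of 40998 probes. One array held kidney RNA of female PCK rats that received pioglitazone, a drug that activates the nuclear receptor PPAR-gamma. The dose was 10 mg/kg, gavaged once a day between the ages of 4 and 20 weeks. The other held kidney RNA of female PCK rats gavaged over the same ages with vehicle containing 0.5% DMSO. Both groups carry the PCK mutation in Pkhd1, the gene behind recessive polycystic kidney disease in humans, so every comparison is within cystic kidneys. Each array was made from RNA pooled within its group, from 5 females by the design text and 3 rats by the labelling text. The normal +/+ rats of the treatment protocol are not analysed here.

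The proximal tubule reclaims most of what the glomerulus filters. Sodium-coupled carriers in the apical brush border pull glucose, phosphate, sulfate and dicarboxylates into the cell, a sodium-proton exchanger drives acid secretion, and basolateral carriers pass glucose, sulfate and bicarbonate on to the blood. Filtered proteins are taken up by receptor-mediated endocytosis through megalin. These functions are known to be lost when tubule cells dedifferentiate.

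The pioglitazone and vehicle pools differed little in these genes. On the log2 scale, pioglitazone minus vehicle, the 10 genes lay between -0.07 and 0.33, with a median of 0.06 against 0.03 over all 10484 measured genes. Slc5a1 (0.33) and Slc26a1 (0.31) had the largest differences, and no gene differed by more than 2 times the technical error of its probe. That error comes from the scanner software's own estimate for both spots. At the brightest probes of the 10 genes, this estimate was always 10% to 10.2% of the signal. There, 2 technical errors are therefore close to a fixed cut of 1.33-fold, not a noise level measured for each probe. Scatter among repeated spots was narrower, at a median SD of 0.07 over 203 probes, and did not enter the technical error. Each group has 1 array, so the differences have no replicate check, no p-value was computed, and the technical error leaves out how animals vary. The number of arrays limits the precision.

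Both arrays lay on 1 slide and were read in 1 scan. Of 43379 spots besides controls, 71.8% were well above background with vehicle and 73.1% with pioglitazone, and 0 spots were saturated on either array. The median local background was 21 with vehicle and 18 with pioglitazone. All 13 probes of the 10 genes were well above background on both arrays, so every gene passed the filter on dim probes. When the grid rows are cut into 10 equal bands, Lrp2, Slc26a1 and Slc2a2 have their brightest probe in the sixth or the seventh. Those bands hold 20.1% of measured genes and 16 of the 47 genes that were 2-fold apart (34.0%). The part of that position in their values was not tested beyond leaving those rows out.

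Promoter sequences are shown for a pair of glucose carriers with the larger and the smaller difference, Slc5a1 and Slc5a2. All 10 genes matched RefSeq's promoter table (GRCr8 build). The 250 bases before the transcript start are printed 5′ to 3′ on the gene's strand, in lower case, since neither holds a match to the motifs below.
Slc5a1, chr14:81843085-81843334, minus strand: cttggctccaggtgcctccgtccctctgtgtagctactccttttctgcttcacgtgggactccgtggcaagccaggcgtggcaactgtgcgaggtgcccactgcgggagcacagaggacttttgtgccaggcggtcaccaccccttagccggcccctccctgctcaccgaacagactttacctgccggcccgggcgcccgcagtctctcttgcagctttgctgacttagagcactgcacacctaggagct
Slc5a2, chr1:192277371-192277620, plus strand: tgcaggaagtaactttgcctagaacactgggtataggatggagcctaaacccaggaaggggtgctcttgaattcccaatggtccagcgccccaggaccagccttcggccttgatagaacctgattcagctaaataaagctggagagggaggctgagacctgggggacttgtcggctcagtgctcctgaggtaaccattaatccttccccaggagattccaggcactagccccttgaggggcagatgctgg
Both windows overlap no annotated gene. Windows of Slc2a2, Slc4a4 and Slc9a3 lie inside the annotated span of their own gene, that of Slc26a1 inside both its own span and that of Idua, and that of Slc13a3 overlaps Elmo2. The array's own annotation uses the rn4 build, and no coordinate was carried between builds.

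The motifs were searched on both strands of these 250 bases. An HNF4 element (CAAAGTCCA, in 0.338% of 33469 promoters) and a PPAR element, 2 copies of AGGTCA with 1 base between (0.0508%), were in 0 of the 10. The nuclear receptor half-site AGGTCA, which also forms part of the PPAR element, was in 14.1% of promoters and in Slc2a2 alone among the 10, at 139 to 134 and at 88 to 83 bases before the start. A match is a description of letters, and its absence says nothing about binding. The GC content of the 10 windows ran from 36.4% in Slc13a1 to 80.8% in Slc4a4, with a median of 51.2% over all promoters.

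Signals below are the deposited processed intensities in arbitrary units, each with the software's error for that spot. Differences are taken after each array's 75th percentile was subtracted on the log2 scale, which removed a shift of 0.08 in favour of the pioglitazone array. All 10 genes therefore read at least as high with pioglitazone before scaling, and 7 of 10 after it. Probes differ in how strongly they bind their target, so no gene's signal is set against that of another. In whole kidney RNA, more cells of a type and more RNA per cell cannot be told apart.

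**Figure D1:**
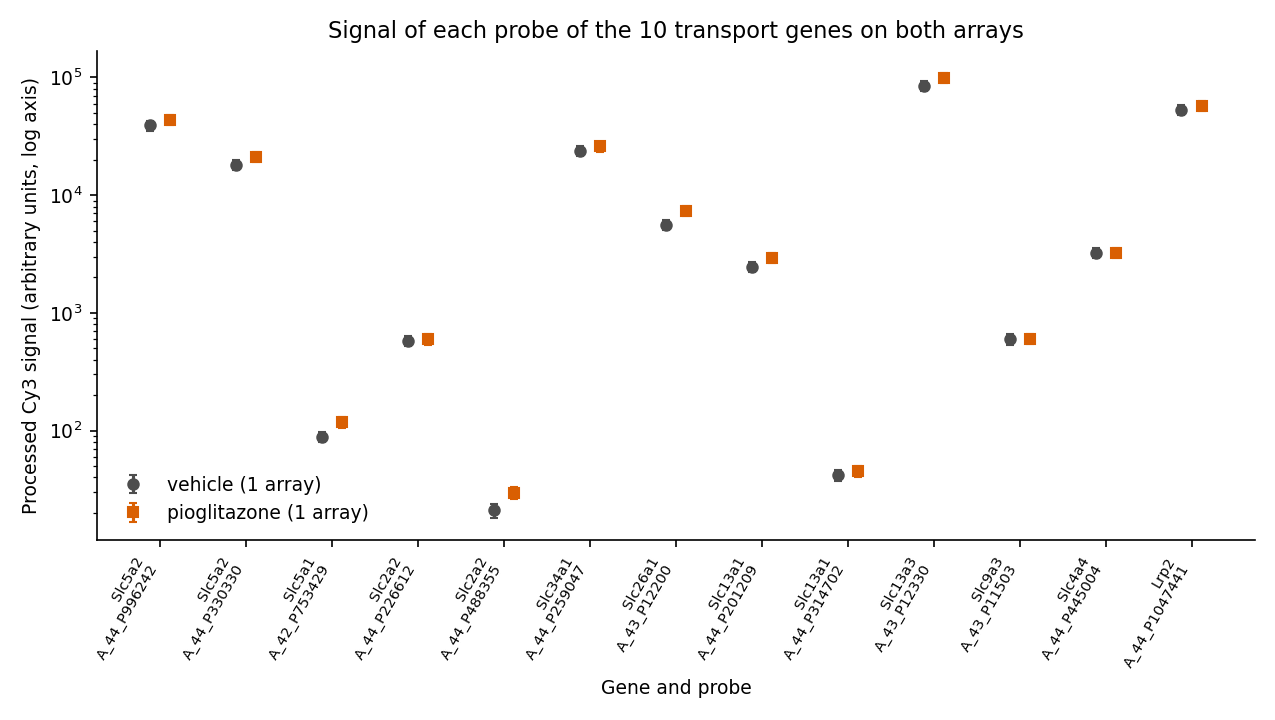
Processed Cy3 signal (log axis, arbitrary units) of each of the 13 probes on the vehicle array (circles) and the pioglitazone array (squares), 1 array per group. Bars are the software's error of the spot, averaged over spots for Slc9a3, and for most probes the bars of both arrays overlap.

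Slc5a2 encodes SGLT2, the low-affinity, high-capacity apical carrier that takes up most filtered glucose in the early proximal tubule. Its brightest probe read 39100 ± 3910 with vehicle and 43700 ± 4370 with pioglitazone. A second probe of the gene read 18200 ± 1820 and 21100 ± 2110. Both probes read slightly higher with pioglitazone, with differences of 0.08 and 0.13, each within its technical error of 0.20.

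Slc5a1 encodes SGLT1, the high-affinity carrier that reclaims the remaining glucose further along the tubule and also serves the intestine. Its single probe read 88.7 ± 9.02 with vehicle and 118 ± 11.9 with pioglitazone, only 3.41 and 6.05 times the local background. The difference of 0.33, or 1.26-fold, was the largest of the 10 genes and stood at 1.59 times its technical error. An interval of 2 technical errors runs from -0.08 to 0.74, so these arrays resolve neither the absence of a difference nor one of 1.5-fold.

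Slc2a2 encodes GLUT2, the basolateral facilitative carrier through which glucose leaves early proximal tubule cells. Its brighter probe read 578 ± 57.9 with vehicle and 598 ± 59.8 with pioglitazone, a difference of -0.03 after scaling. Its dimmer probe read 21.1 ± 2.85 and 29.7 ± 3.54, less than 2 times the local background, a difference of 0.41. The probes thus disagree in sign, and their differences are 0.44 apart with a combined technical error of 0.33. The brighter probe lies in the band of rows named above and the dimmer one does not.

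The glucose carriers were compared with each other by the difference of their differences. Slc5a1 exceeded Slc5a2 by 0.25 with a technical error of 0.29, and exceeded Slc2a2 by 0.36 with the same error. Slc5a2 exceeded Slc2a2 by 0.11. None of these 3 pairs is resolved at 2 technical errors.

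**Figure D2:**
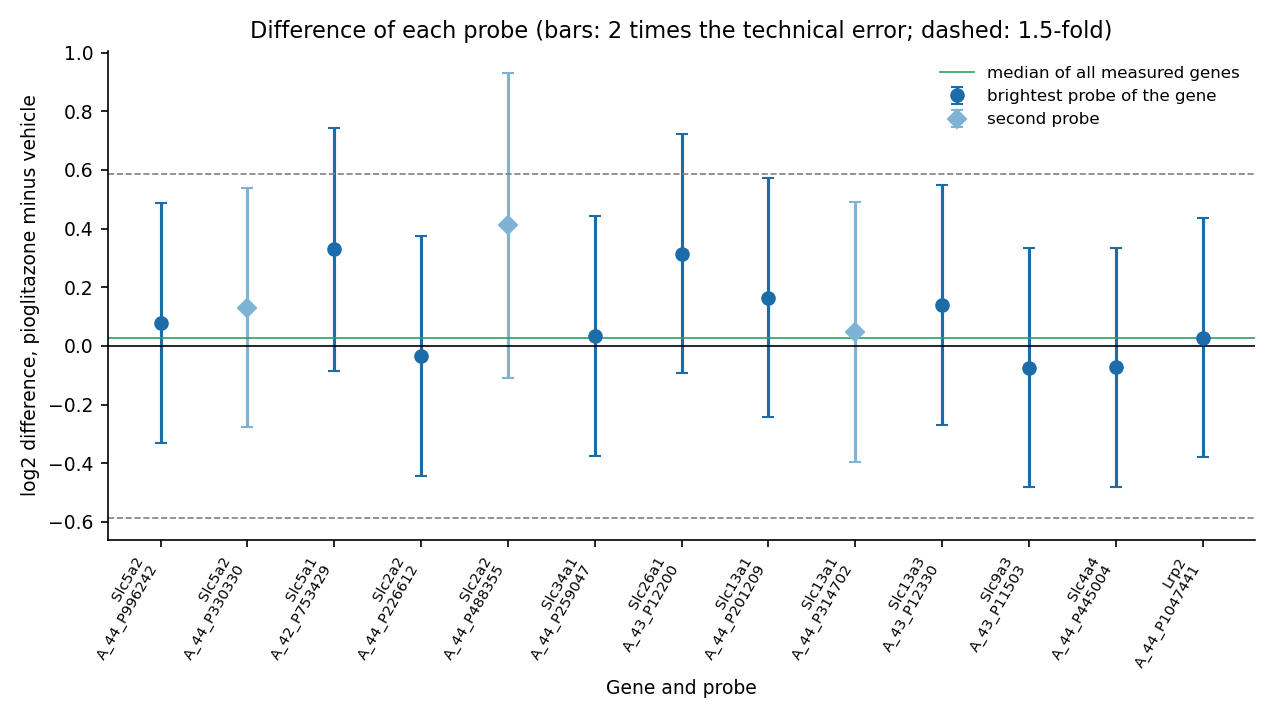
Log2 difference, pioglitazone minus vehicle, of each probe of the 10 genes, with bars of 2 technical errors, dashed lines at 1.5-fold and a line at the median of all measured genes (0.03). Bars of all 13 probes reach 0, and the differences of Slc5a1 (0.33), Slc26a1 (0.31) and the dim Slc2a2 probe (0.41) are the highest.

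Slc34a1 encodes NaPi-IIa, the main apical phosphate carrier, which parathyroid hormone and FGF23 remove from the brush border. It read 23900 ± 2390 with vehicle and 25900 ± 2590 with pioglitazone, 1138 and 1400 times the local background. The difference of 0.03 lay at the centre of all measured genes, with 51.4% of them lower. Cyclic loess scaling turned its sign (-0.03), as did normexp correction (-0.01).

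Sulfate is taken up at the apical membrane by NaS1, encoded by Slc13a1, and leaves at the basolateral membrane through SAT1, encoded by Slc26a1. Slc26a1 read 5590 ± 559 with vehicle and 7360 ± 736 with pioglitazone, a difference of 0.31 or 1.24-fold. That is 1.54 times its technical error, and 94.6% of measured genes had a lower difference. Slc13a1 read 2460 ± 246 and 2920 ± 292 at its brighter probe and 41.7 ± 4.60 and 45.6 ± 4.88 at its dimmer one. Both probes were higher with pioglitazone, by 0.17 and 0.05, within their technical errors. The difference of Slc26a1 exceeded that of Slc13a1 by 0.15 with an error of 0.29, which leaves apical and basolateral sulfate carriers unresolved from each other.

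Slc13a3 encodes NaDC3, the basolateral carrier that brings dicarboxylates such as alpha-ketoglutarate into the cell, where they drive the exchange of organic anions. It read 85000 ± 8500 with vehicle and 99100 ± 9910 with pioglitazone. The difference of 0.14 lay within its technical error of 0.20 and was above that of 75.8% of measured genes.

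Slc9a3 encodes NHE3, the apical sodium-proton exchanger behind most proximal sodium and bicarbonate reclamation, and it alone among the 10 genes was printed as 10 spots. Over these spots the signal ran from 551 to 628 with vehicle, with a median of 601. It ran from 570 to 623 with pioglitazone, with a median of 598, so the arrays overlap throughout. After scaling, all 10 spots read lower with pioglitazone, between -0.13 and -0.02, with a mean of -0.08 and an SD between spots of 0.04. One spot with an outlier flag was left out of the gene's value of -0.07. The SD between spots was below the technical error of 0.20, which joins the software's errors of both arrays, and over 203 replicated probes well above background the median SD was 0.07. The negative sign rests on the scaling, since the unscaled difference was 0.01.

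Slc4a4 encodes NBCe1, the basolateral sodium-bicarbonate cotransporter that completes bicarbonate reclamation. It read 3230 ± 323 with vehicle and 3250 ± 325 with pioglitazone. Its difference of -0.07 also turned to 0.01 without scaling. The apical and the basolateral step of acid-base transport had differences of -0.07 each, and 2 technical errors of their contrast leave an interval of 0.58 on either side.

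Lrp2 encodes megalin, the large apical receptor that retrieves filtered albumin, vitamin-binding proteins and hormones. It read 52900 ± 5290 with vehicle and 57100 ± 5710 with pioglitazone, or 2519 and 3005 times the local background. The difference of 0.03 had 50.3% of measured genes below it. Quantile scaling turned its sign (-0.02), as did cyclic loess (-0.04).

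Counted as a group, 7 of 10 genes had a positive difference, where 56.2% of all measured genes did. That count depended on the scaling, with 5 under cyclic loess, 6 under quantile scaling and 10 without scaling. At 1.2-fold, 2 of 10 were higher, Slc5a1 and Slc26a1, against 8.22% of measured genes, and 0 were lower, against 11.1%. At 1.5-fold and past 2 times the technical error, 0 were higher and 0 lower, against 0.754% and 1.76%. Past 2 technical errors in either direction without a fold limit were 0 of 10, against 5.61%. Dim genes raise some of these shares. Of the 7460 measured genes at least as bright as the dimmest of the 10, 59.8% were positive. At 1.2-fold, 5.98% of those were higher and 7.32% lower, and 269 were past 2 technical errors. The 6 genes of the apical membrane had a median of 0.06, with 5 positive. The 4 basolateral genes had a median of 0.05, with 2 positive. Quantile scaling left 1 gene higher at 1.2-fold and normexp correction 0.

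**Figure D3:**
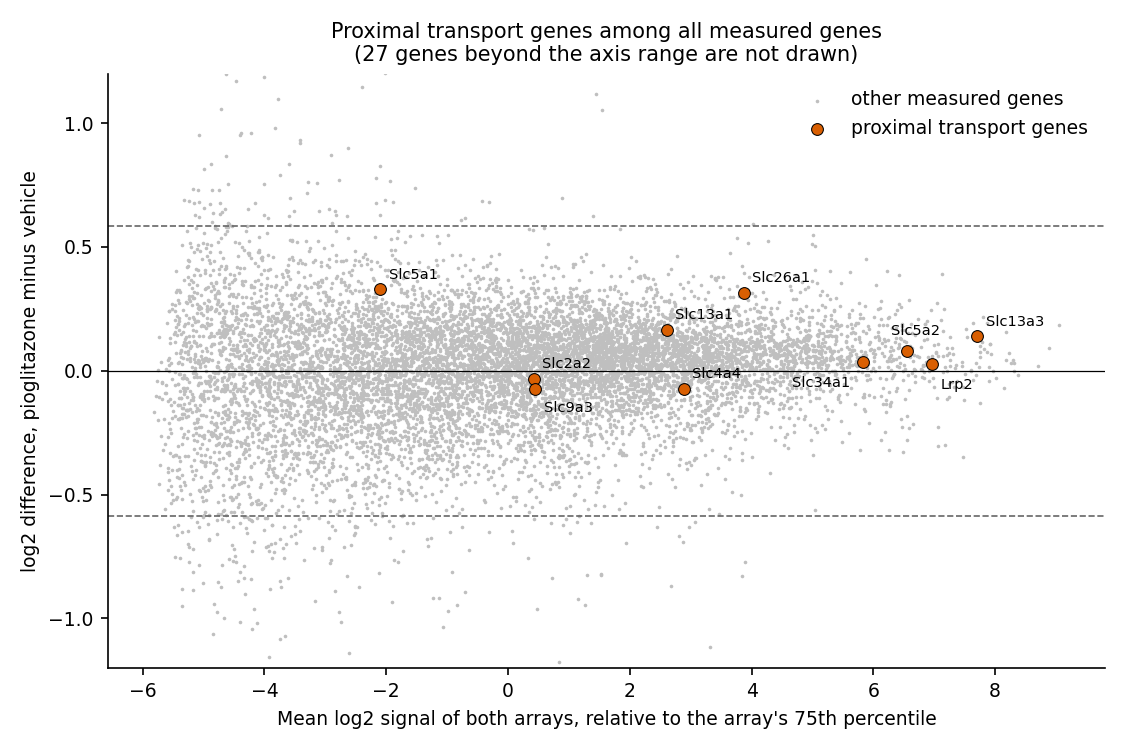
Log2 difference against mean log2 signal of both arrays for all measured genes (grey) and the 10 transport genes (filled), with dashed lines at 1.5-fold. The transport genes lie inside the grey cloud, Slc5a1 and Slc26a1 near its upper part and Slc34a1 and Lrp2 at its centre.

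Genes that work beside these carriers were taken from 5 lists, 64 genes in all, of which 56 were measured. Of these, 42 had a positive difference, with a median of 0.10, and 0 passed the 1.5-fold criterion in either direction. Of all measured genes, 56.2% were positive, a share that belongs beside each count of positive genes below. By the 1.5-fold criterion, 0.754% of all measured genes were higher and 1.76% lower. Past 1.2-fold, 9 of the 56 were higher and 5 lower, beside 8.22% and 11.1% of all 10484 measured genes. The genes named below are the 3 with the largest difference in each list.

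Other genes of sugar handling were positive in 6 of 9 around a median of 0.14. Pck1, the rate-limiting enzyme of gluconeogenesis, read 6140 with vehicle and 8070 with pioglitazone (0.31). The mannose and fructose carrier Slc5a10 read 5780 and 7490 (0.29), and the inositol carrier Slc5a11 read 2430 and 3120 (0.28). All 3 lay within 2 times their technical error. Both carriers, like Slc5a1, belong to the sodium-glucose cotransporter family, whose listed members ran from -0.17 to 0.33.

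Other genes of phosphate and sulfate handling were positive in 12 of 14 around a median of 0.19. Past 2 times the technical error were 3 of them, beside 5.61% of all measured genes, and 0 reached 1.5-fold. Cyp27b1, which makes active vitamin D, read 94.9 with vehicle and 141 with pioglitazone (0.49). Cyp24a1, which breaks active vitamin D down, read 807 and 613 (-0.48). Slc13a2, the apical dicarboxylate and citrate carrier NaDC1, read 5260 and 7470 (0.42). Slc34a1, the main apical phosphate carrier, stood at 0.03. The part of hormones in these differences was not tested.

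Of 18 other acid-base genes, 14 had positive differences, and the median was 0.10. The bicarbonate cotransporter Slc4a5 was dim, at 15.8 with vehicle and 10.8 with pioglitazone, and its difference of -0.63 lay within 2 times its technical error of 0.39. Slc4a7, another bicarbonate cotransporter, was at -0.34 and the sodium-proton exchanger Slc9a2 at 0.33, both within 2 technical errors. Partners of megalin in endocytosis were positive in 7 of 10 around a median of 0.07. Cubn, which encodes the megalin partner cubilin, was at 0.23, the megalin chaperone Lrpap1 at 0.18 and the related receptor Lrp1 at -0.18.

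Among transcription factors of the proximal tubule and nuclear receptors, 3 of 5 were positive, with a median of 0.25. The bile acid receptor Nr1h4 was at 0.33 and Hnf4a, a factor that maintains proximal tubule identity, at 0.29. Pparg, the receptor that pioglitazone activates, was at -0.30 with signals of 37.5 and 32.3. All 3 lay within 2 times their technical error.

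**Figure D4:**
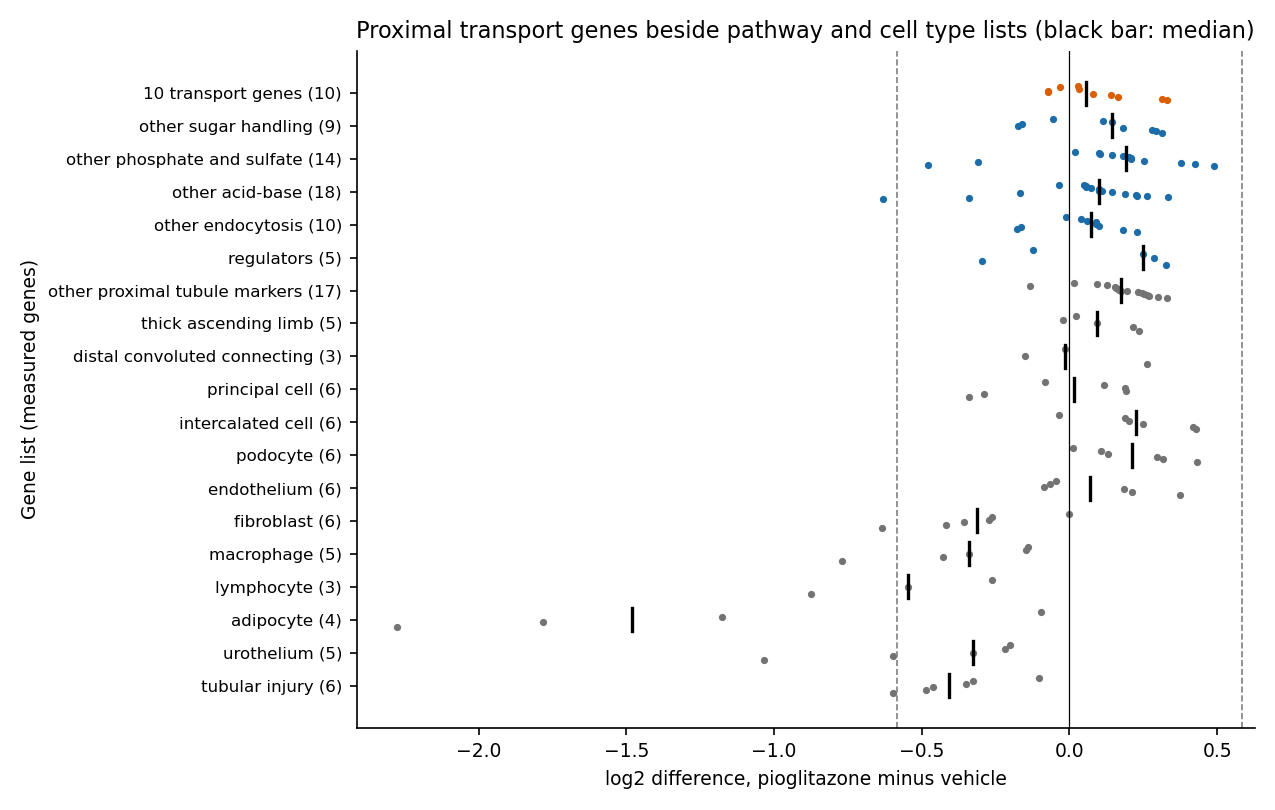
Log2 difference of each measured gene in the 10 transport genes, 5 pathway lists and 13 lists of cell type and injury markers, with a black bar at each median and dashed lines at 1.5-fold. The transport genes center at 0.06 and other proximal tubule markers at 0.17, while the lists of fibroblasts, immune cells, adipocytes, urothelium and tubular injury lie below 0.

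Other markers of the proximal tubule were positive in 16 of 17 measured genes around a median of 0.17 and 0 past the 1.5-fold criterion. Of all measured genes, 56.2% were positive, and 0.754% were higher and 1.76% lower by that criterion. The amino acid carrier Slc7a7 was at 0.33, the organic anion carrier Slc17a3 at 0.30 and the brush border enzyme Ggt1 at 0.27. Of the 22 listed genes, 17 had a named probe, and 0 of these 17 failed the filter on dim probes. Their summed signal, in multiples of the array's 75th percentile, was 841 with vehicle and 943 with pioglitazone, a ratio of 1.12. The same ratio was 1.06 for the 10 transport genes and 1.03 for all measured genes.

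Markers of several other cell types, and markers of tubular injury, had negative differences beside these small positive values. For comparison, 4595 of all 10484 measured genes were negative. Fibroblast markers were negative in 6 of 6 genes, with a summed signal of 47.8 with vehicle and 37.2 with pioglitazone. One of the 6, Pdgfrb, was all but unchanged at -0.002, and read 889 with vehicle and 940 with pioglitazone before scaling. Macrophage markers were negative in 5 of 5 (10.8 and 8.64) and lymphocyte markers in 3 of 3 (1.36 and 0.937). Urothelial markers were negative in 5 of 5 (5.38 and 4.25) and adipocyte markers in 4 of 4 (5.98 and 3.33). The adipocyte markers were uneven, with Adipoq at only -0.10 and Retn, Ucp1 and Cfd at -2.27, -1.78 and -1.18. Tubular injury markers were negative in 6 of 6 (313 and 248). They were led by Havcr1, which encodes kidney injury molecule 1 (-0.60), Lcn2 (-0.49) and Krt20 (-0.46). Krt20 was dim, at 16.8 with vehicle and 12.9 with pioglitazone, with a technical error of 0.34. Past 2 technical errors were 2 of these 6 genes, beside 5.61% of all measured genes. Podocyte markers were positive in 6 of 6 (31.0 and 34.8) and intercalated cell markers in 5 of 6 (215 and 249). Markers of the thick ascending limb were positive in 4 of 5 (523 and 561), of principal cells in 3 of 6 (217.9 and 218.4), of endothelium in 3 of 6 (30.7 and 34.8) and of the distal convoluted and connecting tubule in 1 of 3 (8.10 and 8.42). A summed signal is led by its brightest probes. Spp1 and Clu gave 85660 and 42900 of the 133525 units behind the tubular injury sum with vehicle. Cd3g gave 527 of the 580 units behind the lymphocyte sum with vehicle. Kdr gave 11000 of the 13099 units behind the endothelial sum with vehicle, while the median difference of that list was 0.07. Calb1 gave 2550 of 3452 units behind the distal sum, which was higher with pioglitazone although 2 of its 3 genes were negative, with a median of -0.02. The part of these other cell types, or of tubular injury, in the values of the transport genes was not tested.

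**Figure D5:**
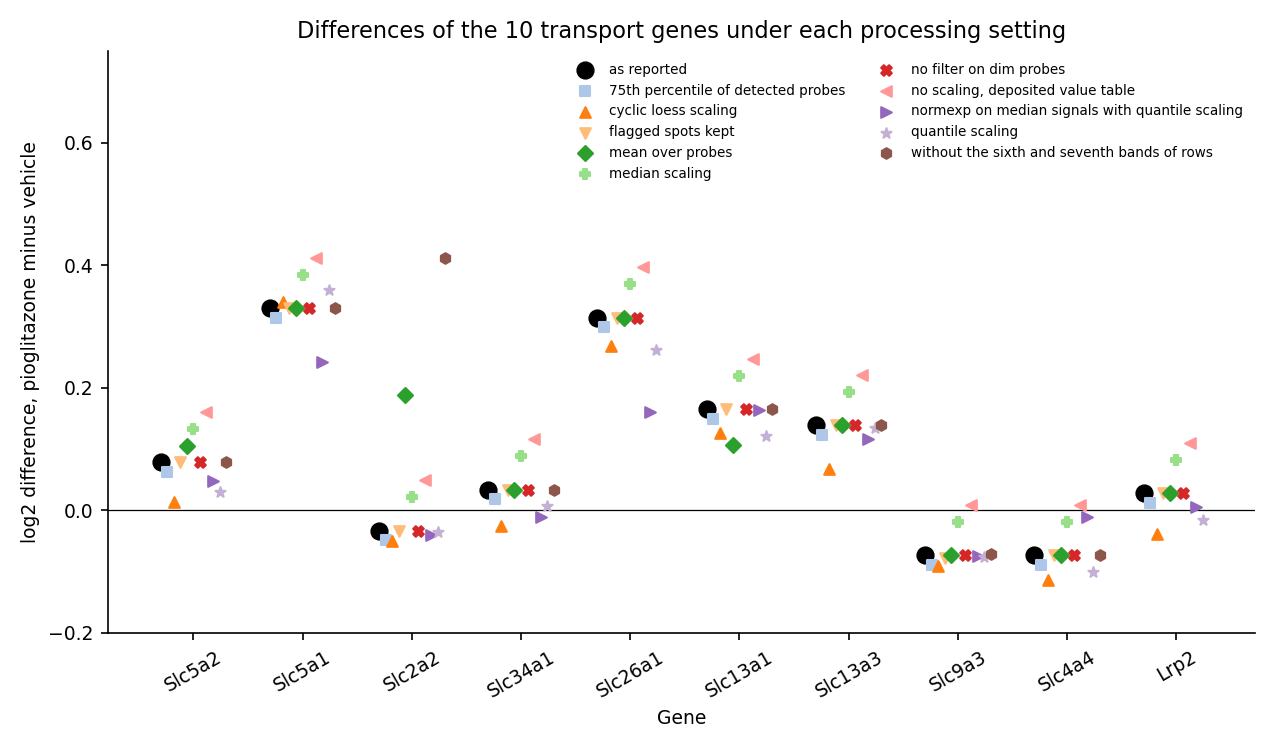
Log2 difference, pioglitazone minus vehicle, of each of the 10 genes as reported (large black circles) and under 10 other processing settings. Slc5a1, Slc26a1, Slc13a1, Slc13a3 and Slc5a2 stay above 0 in every setting that gives a value, and Slc2a2 ranges from -0.05 to 0.41.

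Across 10 alternative settings, Slc5a1 ran from 0.24 to 0.41, Slc26a1 from 0.16 to 0.40, Slc13a1 from 0.11 to 0.25, Slc13a3 from 0.07 to 0.22 and Slc5a2 from 0.01 to 0.16. These 5 had a positive sign in all alternatives that gave a value. Some alternatives could not change a gene read from a single spot. Slc5a1, for example, stayed at 0.33 with flagged spots kept, as a mean over probes and with no filter on dim probes. Median scaling and no scaling shift all genes by the same amount. The sign of Slc2a2, Slc34a1, Lrp2, Slc9a3 and Slc4a4 turned under at least 1 of the alternatives.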

How the data were processed

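The members and gene lists were chosen with earlier results of these data known. Per the labels, each of 2 groups is 1 array of pooled, Cy3-labelled kidney RNA. Spot intensity in the deposited scanner files is linear and was made by Agilent Feature Extraction 10.7.3.1, per the submitters' processing notes. The deposited value table equals these intensities at all 45018 features of each array, with column medians of 46.8 and 47.7 and so no log scale or centring. Here signals were put on the log2 scale, each array's 75th percentile was subtracted, 149 spots with outlier flags were left out and replicate spots were averaged (Python 3.11.15, pandas 2.3.3). Probes were named through unversioned RefSeq accessions (GRCr8 table), which named 16959 of 40998. The brightest probe stood for a gene, which was measured if both arrays had that probe well above background and unsaturated. The technical error joins the software's errors of a probe on both arrays, averaged over repeated spots and not reduced for their number. Counts used 2 times this error and folds of 1.2 and 1.5. All genes of the list at hand, with every probe, are named, and of each pathway list the 3 with the largest difference. With 2 arrays no pattern over samples exists by which to name like genes. The procedure was checked on simulated data whose noise was only as large as the scatter between repeated spots. The simulation held no variation between animals or pools, so it does not show how reliable the calls are for 1 pool against 1. Scalings (limma 3.58.1 in R 4.3.3), normexp correction with an offset of 50, filters and probe rules were varied. Some genes and motifs fixed for this work are not reported here and were left out of the lists' counts and medians.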

Additional observations from a re-analysis of the deposited data

How the results depend on the processing

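Of the values recomputed under 10 alternatives, 440 stayed within the technical error, or within 1.5 times for a count, and 8 moved further. That error, near 0.20, is wider than most differences of the 10 genes, so a change of sign can count as staying. Lrp2 was counted so when it went from 0.03 to -0.04 with cyclic loess. Many of the 440 are counts at 1.5-fold that were 0 in every setting. The tally is therefore no measure of robustness. The 8 that moved further are given next. Slc2a2 went from -0.03 to 0.19 as a mean over probes and to 0.41 without the sixth and seventh bands of rows, where its brighter probe lies and its dimmer probe then stands for the gene. The count of transport genes higher by 1.2-fold went from 2 to 1 with quantile scaling and to 0 with normexp correction. With quantile scaling, Slc26a1 stood at 0.262, just below the cut of 0.263. With normexp, Slc26a1 stood at 0.16 and Slc5a1 at 0.24. Why normexp gave lower values was not tested. The adipocyte median of -1.48 became -1.18 with no filter on dim probes, -1.19 with normexp and -1.76 without those rows, and the lymphocyte median of -0.55 became -0.18 with normexp. The median of the 10 genes ran from -0.01 with cyclic loess to 0.14 without scaling, where the median of all genes was 0.11. Slc26a1 and Lrp2 have no value without the middle rows. Normexp used median spot signals. Dim probes of Slc5a1, Slc2a2 and Slc13a1 limit what signal over background can resolve. No paired analysis was possible because there is only 1 array for each treatment.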

Other observations

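Several genes around these carriers were printed as 10 spots, which shows their difference with a spread between spots, though not between animals. They are named here because of that printing, after their values were seen. Hnf4a read from 630 to 679 with vehicle and from 781 to 868 with pioglitazone, so the spots of the arrays did not overlap. All 10 of its spots were higher, with a mean of 0.29 and an SD between spots of 0.05. Ppara, the receptor that drives fatty acid oxidation in the proximal tubule, read from 80.3 to 91.1 and from 103 to 118, with a mean of 0.25 and an SD of 0.06. A second probe of Pck1 read from 1960 to 2040 with vehicle and from 2670 to 2970 with pioglitazone, with a mean of 0.41 and an SD of 0.05. Aqp1, the water channel of the proximal tubule and descending thin limb, was higher in 10 of 10 spots by a mean of 0.10. Egf, Scnn1g and Scnn1b were also higher in 10 of 10 spots, by means of 0.22, 0.19 and 0.12.

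Besides Slc9a3, 5 genes of the lists were lower in all 10 spots. Slc2a1, the GLUT1 glucose carrier of most cells, had a mean of -0.16 and an SD of 0.08, with signals of 1660 to 1920 with vehicle and 1610 to 1880 with pioglitazone that overlap before scaling. Aqp2, the vasopressin-regulated water channel of the collecting duct, had a mean of -0.34 and an SD of 0.06. Spp1, which encodes osteopontin and rises in tubular injury, had a mean of -0.35 and an SD of 0.06. Pparg, the receptor that pioglitazone activates, had a mean of -0.30 and an SD of 0.14, at dim signals of 30.7 to 41.4 with vehicle and 28.7 to 35.2 with pioglitazone that overlap. Ucp1, the uncoupling protein of brown fat and here in the adipocyte list, differed most of the 5, with a mean of -1.78 and an SD of 0.08. Its signals of 267 to 325 with vehicle and 80.7 to 105 with pioglitazone do not overlap, and 4 of its 10 spots carried an outlier flag. Each of these differences describes 2 pools of RNA.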
